A study of Mus musculus with 12 samples.

Results

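Antioxidant enzymes and the enzyme that starts glutathione synthesis were examined in whole blood of mice at normoxia, after chronic hypoxia and after recovery. The 10 genes were taken as a named list: the superoxide dismutases Sod1 and Sod2, the peroxide-removing enzymes Cat, Prdx2, Gpx1 and Gpx4, the quinone and heme enzymes Nqo1 and Hmox1, and the glutamate-cysteine ligase subunits Gclc and Gclm. Every probe set that the platform annotation gives to any of them was used, which made 22 of the 45101 probe sets of the array and 10 of the 18194 genes it names. The rule uses no measured value, although the list was drawn up with earlier results of these data known. A probe set is a group of short oligonucleotides that together read out 1 transcript, and each of the 22 names a single gene.

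Blood of the inferior vena cava was collected from C57Bl/10 mice, with 1 mouse on each Affymetrix Mouse 430 2.0 array and 4 arrays in each of 3 groups. All mice are listed as aged 3 months. The Methods give this age for the mice as obtained and do not give the age at collection. NX mice breathed 21% oxygen throughout. CH mice spent 14 days in hypoxia, with the inspired oxygen fraction (FiO2) brought down in steps to 8%, and REC mice had the same 14 days of hypoxia followed by 14 days at 21%. One label field calls the CH mice normoxic, whereas their titles and treatment call them hypoxic, and the titles were followed. All groups were of the same strain, and no source used here states their sex.

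Superoxide dismutases turn superoxide into hydrogen peroxide, Sod1 in the cytosol and Sod2 in mitochondria. Catalase, peroxiredoxins and glutathione peroxidases then remove peroxides, the last of these at the expense of glutathione, whose synthesis starts with glutamate-cysteine ligase, an enzyme made of the catalytic subunit Gclc and the modifier subunit Gclm. The transcription factor NRF2 is known to drive Nqo1, Hmox1, Gclc and Gclm through antioxidant response elements. Red cells carry oxygen and iron together and are rich in catalase, Prdx2 and Gpx1, and young red cells released from the marrow, the reticulocytes, still contain messenger RNA.

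Promoters of these genes were searched for 3 short motifs because NRF2, GATA1 and the hypoxia-inducible factors each have a known core sequence. RefSeq promoters of the GRCm38.p6 build, 300 bases from 250 before to 50 after the start of transcription, were found for 8 of the 10 genes in 11 windows, and those of Hmox1 and Gclc were not in the table used here. The antioxidant response element core TGACNNNGC, read on both strands, was met in the windows of Sod1 and Gclm and in 12.4% of 32817 promoters. The hypoxia response element core ACGTG was met in those of Gpx1 and Gclm and in 19.6% of all promoters. The GATA motif AGATAA, held by 11.2% of all promoters, was not met in any of the 11 windows. The matches are listed here with the window of each gene that holds one, and genes with and without a match rose in CH. Capitals mark the motif on the plus strand, which is the strand of the gene in all of them, and where the motif lies on the other strand the capitals show its reverse complement.
Sod1, antioxidant response element core on the other strand, 56 bases before the start, chr16:90220696-90220724: gccaaggtggGCGTGGTCAgactcaggcc
Gclm, antioxidant response element core on the other strand, 134 bases before the start, chr3:122245413-122245441: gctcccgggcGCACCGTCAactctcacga
Gpx1, hypoxia response element core, 183 bases before the start, chr9:108338885-108338913: ttatgactagaaACGTGtgggtaaagtta
Gclm, hypoxia response element core on the other strand, 67 bases before the start, chr3:122245478-122245506: cggcagggggcgCACGTccgcgcgctgtt
None of the motifs overlapped another in these windows. A match describes the letters of the window and does not show a bound factor. A motif outside these 300 bases, or a GATA motif with other letters, would not have been found.

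The deposited signals are on a linear scale, and the trimmed mean of every array was 150. The median signal ranged from 32.9 to 59.9 and 19.6% to 33.4% of the signals of an array lay below 16. The ratio of the actin probe set at the end of the transcript to that at its start was 1.61 to 1.86 in NX, 1.91 to 2.11 in CH and 1.54 to 1.73 in REC. Hybridization control transcripts, added to each sample in fixed amount, differed between the groups after the deposited scaling, with a mean log2 signal that was 1.61 higher in CH and -0.81 in REC relative to NX over 18 probe sets. Scaling each array on these controls gave a median change over all probe sets of -0.71 in CH and 0.40 in REC, where the deposited scaling gave 0.11 and -0.10. For this reason values under quantile normalization, median centring or scaling on the hybridization controls stand beside the main values of each gene where these changed a call or a direction. A value with no scaling named is that of the deposited scaling.

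CH and REC were each compared with NX to find which antioxidant transcripts changed during hypoxia and which had come back 14 days after it. A probe set was called at an adjusted p under 0.05 by limma over all 45101 probe sets with at least a 2-fold change of (signal + 16). In whole blood, a change in the number of cells of a type and a change in RNA per cell cannot be told apart. In CH, 15 of the 22 probe sets were called higher and 2 lower, where 22.0% of all probe sets were called, 8.04% higher and 13.9% lower. The 22 are brighter than most of the array, as 18 of them had a signal of at least 100 on at least 4 arrays. Over the 15734 such probe sets of the array, tested alone, 2292 were called higher and 5538 lower in CH. By gene, 8 of 10 rose in CH (Sod1, Sod2, Cat, Prdx2, Gpx1, Gpx4, Nqo1 and Gclm), Gclc fell and Hmox1 did not pass the test. In 18 of the 22 probe sets the CH arrays lay entirely above or below the NX arrays, as they did in 26.1% of all probe sets. Median centring left these calls in place, but quantile normalization and scaling on the hybridization controls each called only Sod2, Nqo1 and Gclm higher and Gclc lower when 1 probe set stood for each gene. Over the 22 probe sets, 9 were called higher and 2 lower under quantile normalization, and 6 higher and 3 lower under the controls. Of all 45101 probe sets, 3260 were higher and 5314 lower under quantile normalization, and 555 and 17480 under the controls.

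In REC, 1 of the 22 probe sets was called higher and 5 lower, where 4.36% of all probe sets were called, 1.62% higher and 2.74% lower. These were Gpx4 higher, and Prdx2 and Gclm lower with both of their probe sets, together with the dimmer Cat probe set. Over the 15734 brighter probe sets alone, 915 were called higher and 1360 lower in REC. In 10 of the 22 the REC arrays did not overlap with the NX arrays, where 20.3% of all probe sets had no overlap. Both sets of changes use the same NX arrays, so they are given side by side and were not correlated with each other. The count in REC fell from 6 to 3 with a pseudocount of 1 or with median centring, and also when replicate 2 or 3 of NX, or replicate 2, 3 or 4 of REC, was left out, and the 3 that then remained were both Prdx2 probe sets and a Gclm probe set. Under the hybridization controls the split in REC was 5 higher and 2 lower, where 7720 of all 45101 probe sets were higher and 412 lower. Between CH and REC, 14 of the 22 probe sets were called higher in CH and 0 lower. Of all probe sets 27.8% were called, 12.6% higher and 15.2% lower. Over the brighter ones alone, 2738 of 15734 were higher and 5787 lower. Under the controls 8 of the 22 were higher and 9 lower, where 623 of all 45101 probe sets were higher and 23977 lower.

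**Figure D1:**
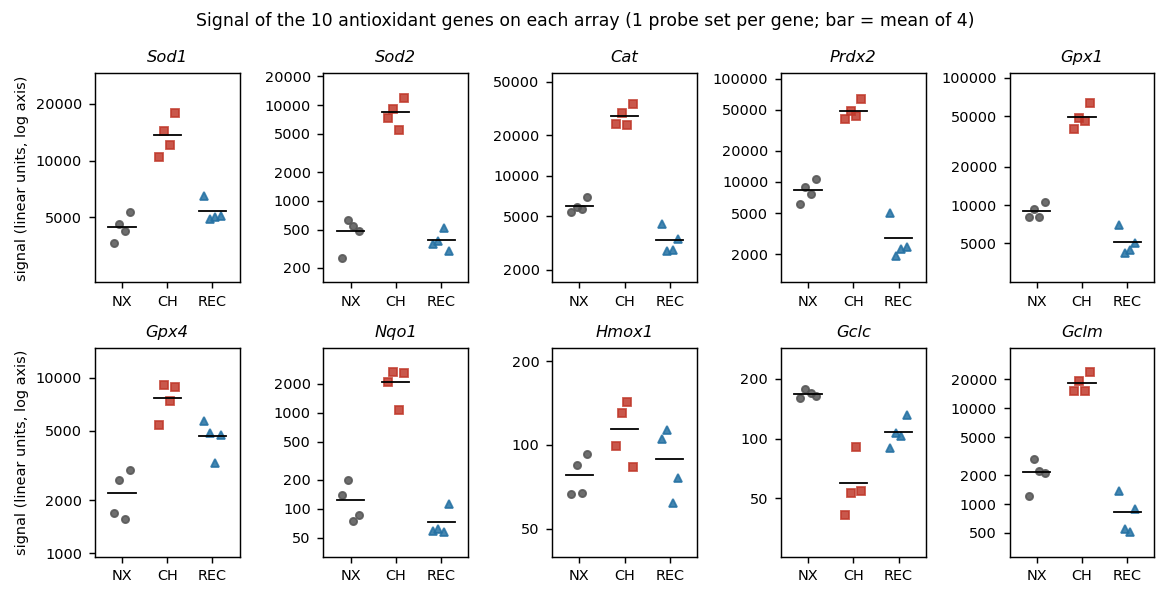
Deposited signal of the 10 genes on each of the 12 arrays (log axis), with 1 point per mouse, a bar at the mean of the 4 arrays of a group, and 1 probe set per gene. Sod2 lies between 5553 and 11855 in CH and between 255 and 638 in NX, while Gclc is lower on every CH array than on every NX array and Hmox1 overlaps between the groups.

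Sod2, the mitochondrial manganese enzyme, had the largest change of the 10 genes in CH under the deposited scaling. Its signal was 255, 638, 545 and 486 on the NX arrays, 7320, 9066, 5553 and 11855 on the CH arrays and 358, 384, 519 and 298 on the REC arrays. Every CH array stood far above every other array, and NX and REC overlapped. The mean rose 17.6-fold in CH, from 481 ± 163 to 8448 ± 2686 (SD, n = 4 each), a log2 change of 4.11 (SE 0.32, limma adjusted p = 1.81e-06), and was called under each scaling, with 3.41 after quantile normalization and 2.50 on the hybridization controls. In REC the mean was 390 ± 93.4 (SD, n = 4), a log2 change of -0.25 (SE 0.32, limma adjusted p = 0.768) that turned to 0.54 on the controls. Against the median of all probe sets on the controls, that change was 0.14.

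The other Sod2 probe sets did not all change by the same amount. Probe set 1417193_at went from 330 in NX to 5984 in CH, a log2 change of 4.13, whereas 1454976_at went from 309 to 807, a log2 change of 1.32 that lost its call and became -0.24 on the hybridization controls. The dimmest, 1417194_at, had a mean of 18.0 in NX and 53.3 in CH and passed the adjusted p (limma, 0.0379) but not the 2-fold limit.

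Sod1, the cytosolic copper-zinc enzyme, rose less. Its signal was 3668, 4591, 4222 and 5360 in NX, 10490, 14419, 12068 and 17912 in CH, and 6456, 4917, 5051 and 5115 in REC. The CH arrays were again all above the rest, and REC overlapped with NX. The log2 change was 1.60 in CH (SE 0.24, limma adjusted p = 0.000218) and 0.28 in REC (SE 0.24, limma adjusted p = 0.622). The rise in CH depended on the scaling, as it was 0.10 after quantile normalization and -0.01 on the hybridization controls, and on the controls the change in REC was 1.09 and was called. Relative to the median of all probe sets on the controls the values were 0.70 in CH and 0.68 in REC. Of the other Sod1 probe sets, 1459976_s_at moved as this one did (1.44 in CH), while the dim 1435304_at was lower in CH, 38.9 against 91.7 in NX (log2 change -1.0, limma adjusted p = 0.00496, just under the 2-fold limit). The former lost its call after quantile normalization (-0.01) and on the controls (-0.17), and the latter gained one under each of the other scalings.

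The distance between the superoxide dismutases was tested within each array, which removes a factor common to the array, apart from the effect of the 16 added before taking logs. The log2 signal of Sod2 minus that of Sod1 was -3.76, -2.82, -2.92 and -3.42 in NX, -0.52, -0.67, -1.12 and -0.59 in CH, and -4.11, -3.62, -3.24 and -4.03 in REC. Signals of different probe sets have no common scale, so only the shift between groups has a meaning. The shift was 2.50 in CH, with all 4 CH arrays above all NX arrays (exact two-sided permutation test, p = 0.0286, the smallest that 4 arrays against 4 can give; adjusted p = 0.0343 over 12 such tests). In REC it was -0.52 (exact two-sided permutation test, adjusted p = 0.143). After quantile normalization, which changes the spacing of signals within an array, the shift in CH was 3.31.

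Catalase, Prdx2 and Gpx1 are the peroxide-removing enzymes that abound in red cells. On the probe set that stands for each gene, they rose in CH by similar factors under the deposited scaling. The other Prdx2 probe set rose more, 12.2-fold against 5.88-fold. The Cat signal was 5367, 5904, 5647 and 6999 in NX, 24159, 29106, 23885 and 33917 in CH, and 4361, 2740, 2809 and 3377 in REC. For Prdx2, a peroxiredoxin, the signals were 6162, 9025, 7647 and 10597 in NX, 40372, 49076, 43759 and 63326 in CH, and 4971, 1899, 2228 and 2330 in REC. For Gpx1, the cytosolic glutathione peroxidase, they were 8055, 9394, 8064 and 10588 in NX, 39553, 48805, 45660 and 63404 in CH, and 6930, 4234, 4471 and 5060 in REC. In all of these genes the groups formed separate ranges in the order CH, NX, REC under the deposited scaling, with every REC array below every NX array.

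The log2 change in CH was 2.20 for Cat (SE 0.23, limma adjusted p = 1.53e-05), 2.56 for Prdx2 (SE 0.31, limma adjusted p = 4.22e-05) and 2.44 for Gpx1 (SE 0.24, limma adjusted p = 9.40e-06). On the probe sets given so far, these calls were lost after quantile normalization, with 0.44, 0.70 and 0.60, and on the hybridization controls, with 0.59, 0.95 and 0.82. Against the median of all probe sets on the controls, the last values were 1.30, 1.66 and 1.53. The other Cat and Prdx2 probe sets have lower signals and kept their calls in CH under every alternative: 1416430_at of Cat went from 2207 to 13651, a log2 change of 2.62 (1.30 after quantile normalization and 1.01 on the controls), and 1430979_a_at of Prdx2 from 2602 to 31728, a log2 change of 3.59 (1.98 under either). Gpx1 has 1 probe set here.

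In REC, Prdx2 fell to a mean of 2857 ± 1421 from 8358 ± 1896 in NX (SD, n = 4 each), a log2 change of -1.62 (SE 0.31, limma adjusted p = 0.00837), with -0.82 and no call on the hybridization controls. Its other probe set fell from 2602 to 484, a log2 change of -2.52 (limma adjusted p = 0.00126), and that call was lost only at an adjusted p under 0.001. The Cat change in REC was -0.86 (SE 0.23, limma adjusted p = 0.0485), short of 2-fold, and without REC replicate 1 it was -1.0 and was called. The dimmer Cat probe set fell by 1.17 on the log2 scale (limma adjusted p = 0.0247), and by 0.37 on the controls with no call. That call was also lost with median centring (-1.01, limma adjusted p = 0.105), a pseudocount of 1 or an adjusted p under 0.001. The same held when NX or REC replicate 2, 3 or 4 was left out. Gpx1 did not pass the test in REC, with a log2 change of -0.82 (SE 0.24, limma adjusted p = 0.0695). On the controls the change in REC was -0.05 for Cat and -0.01 for Gpx1. Against the median of all probe sets on the controls, these were -0.46 and -0.41, and the brighter Prdx2 probe set was at -1.22.

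Gpx4, the glutathione peroxidase that acts on lipid peroxides in membranes, did not follow this order. Its signal was 1699, 2626, 1562 and 2973 in NX, 5350, 9070, 7404 and 8864 in CH, and 5693, 4812, 3267 and 4719 in REC. Every REC array was above every NX array, and REC and CH overlapped. The log2 change was 1.81 in CH (SE 0.29, limma adjusted p = 0.000357) and 1.08 in REC (SE 0.29, limma adjusted p = 0.0436). On the hybridization controls the change in CH was 0.20 and that in REC 1.89. CH was then below REC by a log2 change of -1.69, where the deposited scaling gave 0.73. Relative to the median of all probe sets between CH and REC these were -0.57 and 0.48. The call in REC was lost with median centring, a pseudocount of 1, variances not moderated by eBayes or an adjusted p under 0.001. It was also lost when any of 7 arrays was left out (NX replicate 1, 2 or 3, or any REC array), with values from 0.93 to 1.24. The probe set is of the kind that may bind other transcripts, and the other Gpx4 probe set, 1451695_a_at, changed by 1.77 in CH and by 1.13 in REC on the log2 scale (limma adjusted p = 0.00146 and 0.0784). On that probe set the change in REC was called after quantile normalization (1.35) and on the controls (1.94), and that in CH was not called on the controls (0.17).

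Within the arrays, Gpx4 rose relative to Gpx1 in REC and fell relative to it in CH, the latter not after quantile normalization. The log2 signal of Gpx4 minus that of Gpx1 was -2.23, -1.83, -2.36 and -1.83 in NX, -2.88, -2.43, -2.62 and -2.84 in CH, and -0.28, 0.18, -0.45 and -0.10 in REC. The shift from NX was -0.63 in CH and 1.90 in REC, and neither CH nor REC overlapped with NX (exact two-sided permutation test, adjusted p = 0.0343 for each). Leaving out any 1 array kept the shifts between -0.73 and -0.55 in CH and between 1.78 and 2.00 in REC. The shift in CH then missed the threshold in 5 cases, without NX replicate 2 or 4 or CH replicate 1, 3 or 4 (exact two-sided permutation test, adjusted p = 0.0685 in each). After quantile normalization the shift in CH was 0.19 (exact two-sided permutation test, adjusted p = 0.543) and that in REC 2.08.

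**Figure D2:**
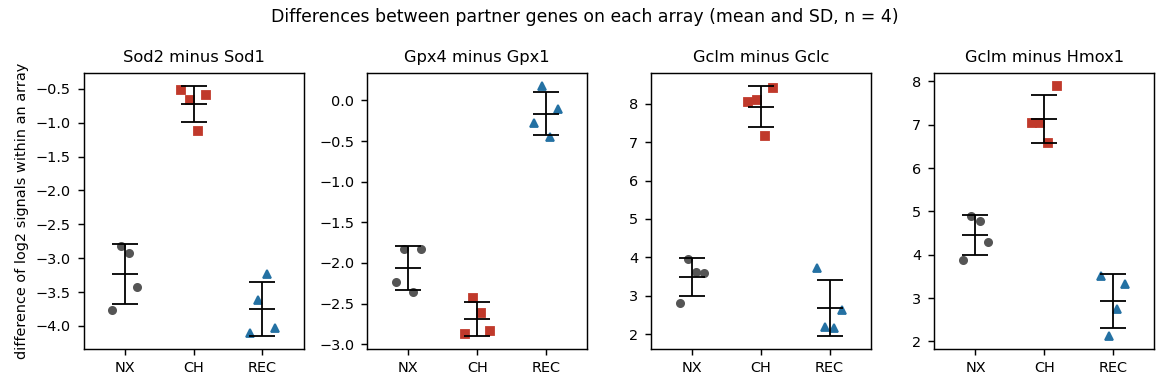
Difference of log2 signals between partner genes within each array, with 1 point per array and the mean and SD of the 4 arrays of each group. Sod2 minus Sod1 and Gclm minus Gclc are higher on all CH arrays than on all others, and Gpx4 minus Gpx1 is highest in REC, where it ranges from -0.45 to 0.18.

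Nqo1, a quinone reductase that uses NADPH or NADH, was dim in NX and REC and bright in CH. Its signal was 138, 201, 73.9 and 86.4 in NX, 2097, 2630, 1057 and 2572 in CH, and 59.5, 61.3, 57.6 and 112 in REC. All CH arrays stood above all others, and NX and REC overlapped. The mean rose 16.8-fold, from 125 ± 57.7 to 2089 ± 728 (SD, n = 4 each), with a log2 change of 3.91 (SE 0.35, limma adjusted p = 4.92e-06), and was called under every alternative, with 3.78 after quantile normalization and 2.34 on the hybridization controls. In REC the log2 change was -0.62 (SE 0.35, limma adjusted p = 0.401), and 0.07 on the controls. Against the median of all probe sets on the controls, the latter was -0.34.

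Hmox1, the inducible heme oxygenase, did not pass the test in any comparison under the deposited scaling. Its signal was 66.7, 84.8, 66.9 and 92.9 in NX, 98.8, 130, 143 and 83.3 in CH, and 105, 113, 61.9 and 75.7 in REC, and the groups overlapped. The log2 change was 0.45 in CH (SE 0.25, limma adjusted p = 0.198) and 0.14 in REC (SE 0.25, limma adjusted p = 0.848), and the value in CH turned to -0.86 on the hybridization controls. Relative to the median of all probe sets on the controls it was -0.15. Between CH and REC the log2 change was 0.31 (limma adjusted p = 0.337), but on the controls it was -1.72 and was called (limma adjusted p = 0.000102). The median of all probe sets in that comparison was -1.13 on the controls, and relative to it Hmox1 was at -0.59.

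The subunits of glutamate-cysteine ligase went opposite ways in CH. The signal of Gclm, the modifier subunit, was 1210, 2981, 2241 and 2135 in NX, 15205, 19067, 15174 and 23718 in CH, and 1373, 545, 513 and 900 in REC. That of Gclc, the catalytic subunit, was 160, 178, 169 and 164 in NX, 41.0, 53.0, 91.2 and 54.2 in CH, and 89.3, 107, 103 and 131 in REC. Gclm was thus highest on the CH arrays and Gclc lowest on nearly all of them, although the highest Gclc array of CH overlapped with REC.

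Gclm rose 8.54-fold in CH, from a mean of 2142 ± 726 to 18291 ± 4053 (SD, n = 4 each), a log2 change of 3.13 (SE 0.35, limma adjusted p = 2.17e-05) that was called under every alternative, with 1.72 after quantile normalization and 1.52 on the hybridization controls. Gclc fell from 168 ± 7.90 to 59.8 ± 21.7 (SD, n = 4 each), a log2 change of -1.31 (SE 0.24, limma adjusted p = 0.000867) that was also called under every alternative. The other probe sets moved the same ways, 1439050_at of Gclm by 2.41 and 1424296_at of Gclc by -1.07 (limma adjusted p = 6.48e-05 and 0.0166), though the former lost its call on the controls (0.80) and the latter after quantile normalization (-0.97).

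In REC, Gclm fell to a mean of 833 ± 401 (SD, n = 4), a log2 change of -1.39 (SE 0.35, limma adjusted p = 0.0333). This call was lost with median centring, on the hybridization controls (-0.59) and without any of 6 arrays (NX or REC replicate 2, 3 or 4), whose values lay between -1.47 and -1.20. It was also lost with a pseudocount of 1, variances not moderated by eBayes, the replicate number as a block or an adjusted p under 0.001. Probe set 1439050_at fell by 1.93 (limma adjusted p = 0.00312) and kept its call under each scaling. The Gclc change in REC was -0.58 (SE 0.24, limma adjusted p = 0.203), with all REC arrays below all NX arrays, and 0.15 on the controls. Against the median of all probe sets on the controls it was -0.25. Between CH and REC it was -0.73 (limma adjusted p = 0.0255), short of 2-fold, and it was called with median centring (-1.05) and on the controls (-2.64). Relative to the median of all probe sets on the controls, the last was -1.51.

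The log2 signal of Gclm minus that of Gclc was 2.80, 3.95, 3.61 and 3.58 in NX, 8.06, 8.11, 7.15 and 8.40 in CH, and 3.72, 2.19, 2.15 and 2.64 in REC. The shift in CH was 4.44, the largest of the 4 pairs tested, and lay between 4.22 and 4.71 when any array was left out (exact two-sided permutation test, adjusted p = 0.0343), and was 2.96 after quantile normalization. In REC the shift was -0.81 and did not pass the test (exact two-sided permutation test, adjusted p = 0.124). Gclm also parted from Hmox1, another known NRF2 target, by 2.68 in CH and by -1.53 in REC (exact two-sided permutation test, adjusted p = 0.0343 for each), with 1.05 and -2.07 after quantile normalization. Without REC replicate 2 the shift in REC was -1.26 and missed the threshold (exact two-sided permutation test, adjusted p = 0.0685). Sod1 and Gclm are the genes whose promoter windows above hold the antioxidant response element core, and their log2 changes in CH were 1.60 and 3.13. Gpx1, with the hypoxia response element core, changed by 2.44. The genes with no match to any of the 3 motifs were Sod2 (4.11), Nqo1 (3.91), Prdx2 (2.56), Cat (2.20) and Gpx4 (1.81), so the ranges of genes with and without a match overlapped. As the windows are short, a gene with no match, Nqo1 included, may hold the element elsewhere.

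**Figure D3:**
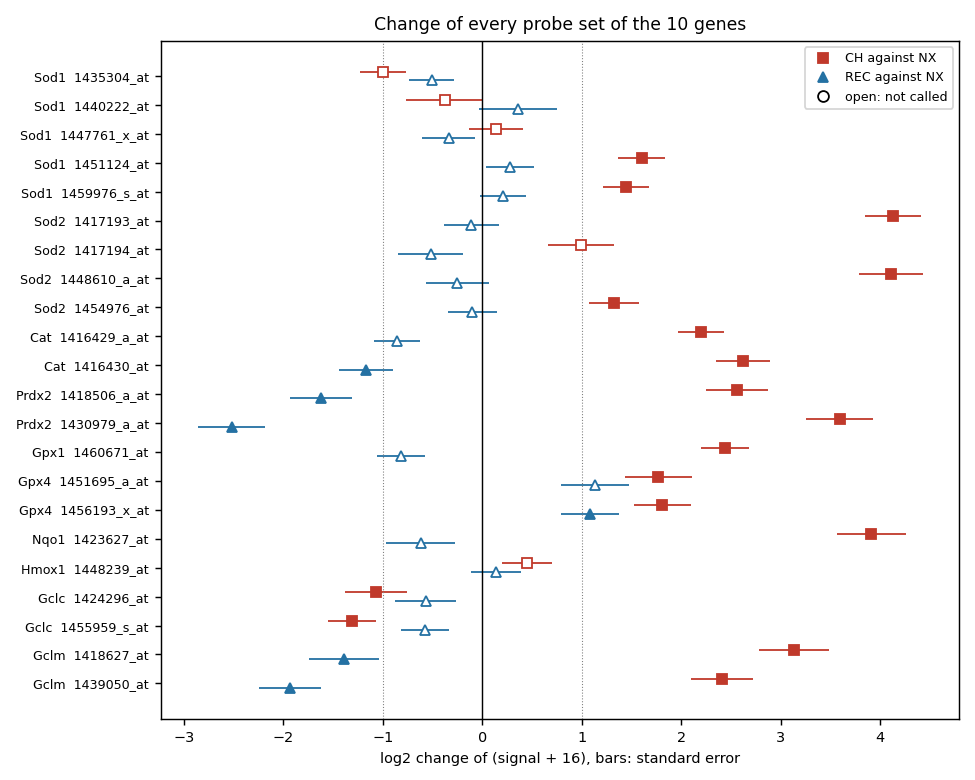
Log2 change of (signal + 16) of all 22 probe sets in CH and in REC relative to NX, with the standard error as a bar and open symbols where the probe set was not called. Probe sets of Sod1 and Sod2 spread widely within the gene, from -1.0 to 1.60 and from 0.99 to 4.13 in CH, while those of Cat, Prdx2, Gpx4, Gclc and Gclm share a direction.

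**Figure D4:**
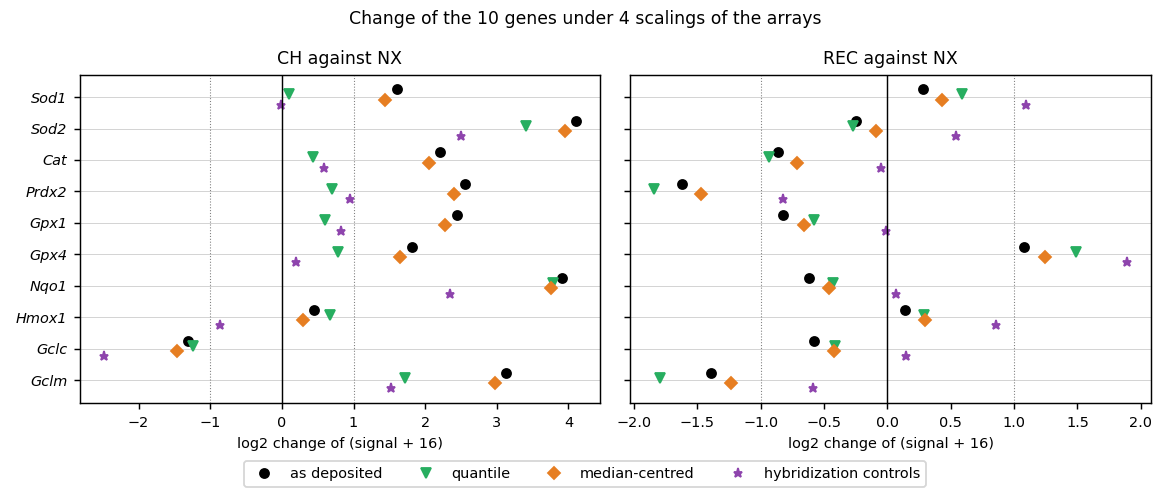
Log2 change of the 10 genes in CH (left) and REC (right) relative to NX under the deposited scaling, quantile normalization, median centring and scaling on the hybridization controls, with dotted lines at a 2-fold change. Sod2, Nqo1 and Gclm stay above the right line in CH and Gclc stays below the left line under all of them, whereas Sod1 moves from 1.60 to -0.01.

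Blood is a mixture of cells. Markers of reticulocytes and erythroid cells moved in the same direction as most of the genes above. All 9 measured of 12 listed (Alas2, Slc4a1, Epb42, Ank1, Hemgn, Tfrc, Rhag, Kel and Ermap) were higher in CH, with a median log2 change of 3.43, and 6 were lower in REC, with a median of -1.78. After quantile normalization 7 were called higher in CH and 5 lower in REC, and on the hybridization controls 8 and 5. Their summed signal was 21825 to 32996 in NX, 109563 to 173907 in CH and 4959 to 15348 in REC. In these groups hypoxia and a larger share of erythroid RNA cannot be told apart.

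Markers of lymphocytes and most of those of NK cells moved the other way in CH. Of 7 measured B cell markers 6 were lower, with sums of 16995 to 21075 in NX, 2035 to 11743 in CH and 20284 to 24022 in REC. Of 9 T cell markers 8 were lower, with sums of 5123 to 7066, 1358 to 4650 and 9644 to 10242. Of 6 NK cell markers 4 were lower and 1, Prf1, higher in CH, and 4 were higher in REC, with sums of 3043 to 5189, 1331 to 2683 and 8543 to 13695. Of 8 monocyte markers 1 was lower in CH, with sums of 7402 to 11680 in NX, 3829 to 11961 in CH and 8493 to 12348 in REC. None of 8 neutrophil or 7 platelet markers was called in CH or REC, though on the hybridization controls 6 monocyte, 5 neutrophil and 7 platelet markers were lower in CH. On the controls 17480 of all 45101 probe sets were lower in CH, with a median change of -0.71. The part of any of these cells in the results was not tested.

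Each gene was then set against the mean log2 signal of the 9 erythroid markers on the same array, a comparison chosen after the data had been seen. Only the probe set that stands for each gene was used, and its other probe sets were not tested in this way. Some of those changed by other amounts from NX. For Prdx2, 1430979_a_at changed by 3.59 in CH and by -2.52 in REC. For Sod2, 1417193_at changed by 4.13 in CH and 1454976_at by 1.32. The markers rose by 3.36 in CH and their change in REC was -1.67. Relative to them, Sod2 was still higher in CH, by 0.75, and 7 genes were lower: Sod1 (-1.75), Cat (-1.15), Prdx2 (-0.80), Gpx1 (-0.92), Gpx4 (-1.55), Hmox1 (-2.90) and Gclc (-4.67) (exact two-sided permutation tests, adjusted p = 0.0381 for each over 20 tests). Nqo1 and Gclm, with 0.55 and -0.23, did not pass this test (exact two-sided permutation tests, adjusted p = 0.168 and 0.331), but after quantile normalization both did, with 0.97 and -1.10. Quantile normalization also widened the distance for Sod1 (-2.72), Cat (-2.38), Prdx2 (-2.11) and Gpx1 (-2.22). In REC, Gpx4 (2.75), Sod1 (1.94), Hmox1 (1.81), Sod2 (1.42), Gclc (1.09), Gpx1 (0.85) and Cat (0.80) were shifted up relative to the markers (adjusted p = 0.0381 for each by the same exact test), and Prdx2 (0.04), Gclm (0.27) and Nqo1 (1.05) did not pass it (exact test, adjusted p of 0.107 or more), the first of which turned to -0.30 and the next to -0.25 after quantile normalization, while Gclm passed the test on the hybridization controls, with 0.54. The REC values of Sod2 and Gclc missed the threshold without any 1 of the NX arrays, and that of Cat without REC replicate 2 (exact two-sided permutation tests, adjusted p of 0.0714 to 0.0762). Nqo1 in REC passed it without REC replicate 1 (1.33), as did Gclm in CH without NX replicate 1 (-0.43).

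The genes whose signal was most like that of each enzyme over the 12 arrays were taken among 11616 single-gene probe sets with a mean signal of at least 100, as a description in which all genes share the arrays and the groups. For Gclm they were Kel (Pearson r 0.997), a red cell surface protein, and Fbxo9 (0.996). For Nqo1 they were Epb42 (0.988), a protein of the red cell membrane, and Ces2g (0.988). Cat was nearest to Eif5 (0.999) and to Gpx1 (0.998), and Gpx1 in turn to Cat and Eif5 (0.998 each), while Prdx2 was nearest to Grina and Hagh (0.998 each).

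Sod2 was most like Glo1 (0.998), which detoxifies methylglyoxal with glutathione, and Carm1 (0.993). Sod1 was nearest to Rnf187 (0.994) and Ndufa3 (0.992), and Gclc, which fell in CH, to Kansl1 (0.991) and Hnrnph1 (0.990). Gpx4 and Hmox1 had no neighbours as close: the highest correlations were 0.948 with Tubb2a and 0.942 with Atp6v1f for Gpx4, and 0.804 with Ehd1 and 0.757 with Trafd1 for Hmox1.

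The rest of the antioxidant system was looked at through 6 further lists, with 64 of 69 genes measured. Prdx1, Prdx5, Prdx6, Ggt1 and G6pdx were not analysed here. Of the 64, 18 were called higher and 12 lower in CH, and 3 higher and 3 lower in REC. The whole array had 8.04% of its probe sets called up and 13.9% down in CH, with 1.62% and 2.74% in REC. Each of the 64 is read by its brightest probe set, whereas the whole array holds many dim ones. Over the 15734 probe sets with a signal of at least 100 on at least 4 arrays, 2292 were higher and 5538 lower in CH. In REC these counts were 915 and 1360. On the hybridization controls the 64 genes gave 9 higher and 30 lower in CH, and 32 and 2 in REC. The entire array of 45101 probe sets then gave 555 and 17480 in CH, and 7720 and 412 in REC. The medians of all 6 lists in CH were below 0 on the controls, from -1.94 to -0.50. They lay on both sides of the median of all probe sets, which was -0.71 on the controls. The medians given for each list below are those of the deposited scaling.

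Of 7 other superoxide and peroxide enzymes, 1 was called in CH. Sod3, Gpx7, Gpx8 and Gpx3 had mean signals of 3.51 to 50.9 in NX and CH, at which the added 16 shrinks a change. Srxn1, which restores oxidised peroxiredoxins, fell from 2040 to 765 (log2 change -1.36, limma adjusted p = 0.00341). Prdx4, a peroxiredoxin of the secretory pathway, rose in REC from 248 to 574 (1.15, limma adjusted p = 0.0177). The median over this list in CH was 0.41, where that over all probe sets was 0.11.

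Of 12 thioredoxin and glutaredoxin genes 4 rose and 1 fell in CH (median 0.65). Txnrd2, the mitochondrial thioredoxin reductase, went from 552 to 8188 (log2 change 3.85, limma adjusted p = 1.01e-05) and Glrx5, a mitochondrial glutaredoxin of iron-sulfur cluster assembly, from 1225 to 10658 (3.12). Txnip, which binds and inhibits thioredoxin, fell from 4992 to 1153 (-2.08). Txn2, the mitochondrial thioredoxin, rose by 1.19, a value that turned to -0.36 on the hybridization controls. In REC, Txnrd2 fell to 137 (log2 change -1.96, limma adjusted p = 0.0102) and Msra, which repairs oxidised methionine, rose from 138 to 296 (1.04, limma adjusted p = 0.0387).

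Of 12 other genes of glutathione synthesis, recycling, breakdown and transport 4 rose and 2 fell in CH (median 0.39). Slc3a2, the heavy chain of the cystine and other amino acid transporters, went from 563 to 8325 (log2 change 3.81, limma adjusted p = 1.13e-06) and Chac2, which degrades glutathione, from 92.5 to 746 (2.79). Slc25a39, the mitochondrial glutathione carrier, rose by 1.81 under the deposited scaling, but the change was 0.05 after quantile normalization and 0.20 on the hybridization controls. In REC it fell by 1.77 (limma adjusted p = 0.0128), and by 0.96 with no call on the controls. Ggct, another enzyme of glutathione breakdown, fell in CH from 223 to 64.4 (-1.68).

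Of 13 glutathione S-transferases, which couple glutathione to other molecules, 5 rose and 2 fell in CH (median 0.15). The largest changes were those of Mgst3, from 81.2 to 1513 (log2 change 3.96, limma adjusted p = 5.50e-07), Gstt1, from 36.2 to 840 (3.67), and Gstm5, from 1974 to 22654 (3.52). Mgst2 fell from 358 to 90.1 (-2.05). Gstm5 fell in REC to 375 (-2.82, limma adjusted p = 0.00836), the lowest change of the list in that comparison.

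Of 8 genes that supply NADPH, which recycles glutathione and thioredoxin, 1 rose and 3 fell in CH (median -0.48). Nnt, the mitochondrial transhydrogenase, fell from 1102 to 233 (log2 change -2.44, limma adjusted p = 0.000691), Idh2 from 239 to 77.7 (-1.97) and Pgd, of the pentose phosphate pathway, from 846 to 373 (-1.18). After quantile normalization Idh2 (-1.70) and Pgd (-0.88) were not called. Taldo1 rose by 1.82 but by 0.48 after quantile normalization and 0.21 on the hybridization controls, with no call in either. Pgls rose in REC from 173 to 404 (1.15, limma adjusted p = 0.0193).

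Among 12 genes of heme breakdown and NRF2 regulation 4 rose and 3 fell in CH (median -0.07) and 0 were called in REC. Blvrb, a biliverdin reductase that is abundant in red cells, went from 1745 to 22394 (log2 change 3.79, limma adjusted p = 7.16e-06) and Sqstm1, an autophagy receptor that also binds Keap1, from 547 to 4889 (3.07). Mafk, a partner of NRF2 on DNA, rose by 2.16 and by 0.59 with no call on the hybridization controls. Keap1, which holds NRF2 for degradation, fell from 269 to 76.7 (-1.67). Nfe2l2, the gene of NRF2 itself, fell by 1.40, and it is named here after its value was seen.

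**Figure D5:**
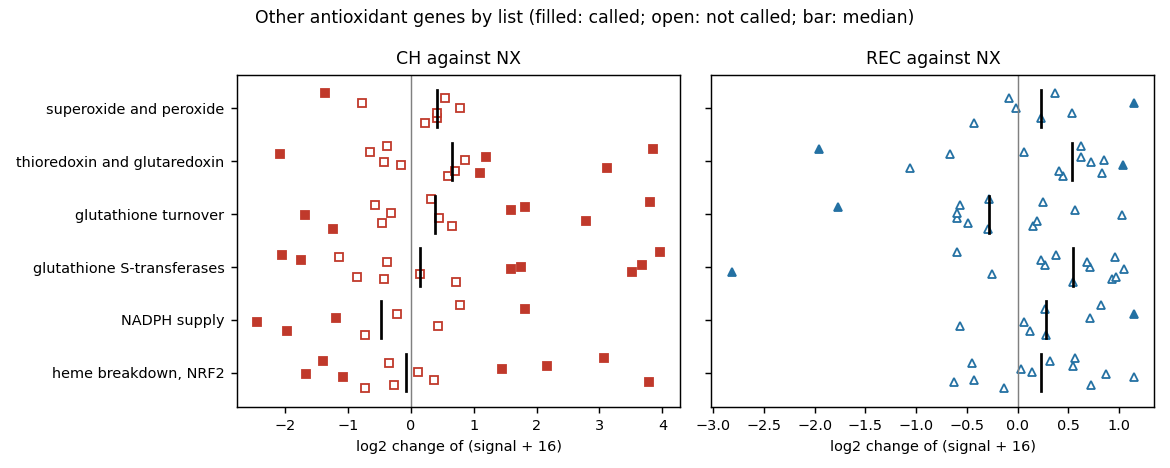
Log2 change of (signal + 16) of the 64 further antioxidant genes in CH and REC relative to NX by list, filled where called and open where not, with a bar at the median of each list. The medians in CH run from -0.48 for NADPH supply to 0.65 for thioredoxins and glutaredoxins, and in each list but that of other superoxide and peroxide enzymes some genes rose while others fell under the deposited scaling.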

How the data were processed

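Whole blood RNA of 12 mice was hybridised to 12 arrays, and samples were grouped by their titles. The deposited table holds linear intensities, with equal trimmed means (2% at each end) on every array as global scaling gives. The sources used here do not name the program that made these intensities. The Methods name GC-RMA, which gives log2 values, a scale these intensities are not on. The labels and the Methods also differ on how RNA was amplified. They give no detection call, saturation flag or scan date.

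Names came from the platform annotation, which gives 1 gene for 34958 of 45101 probe sets. log2(signal + 16) was fitted with a mean per group over all 12 arrays in limma 3.58.1 (R 4.3.3; lmFit, eBayes, 9 residual degrees of freedom), and p-values were adjusted by Benjamini-Hochberg over all probe sets. The fit was tested on simulated data. The number of arrays limits the precision. For a gene with several probe sets, that with the highest mean log2 signal stands for it. Differences within arrays were tested by exact two-sided permutation. Named were all members, in each further list up to 4 called genes with the largest change in CH and 2 in REC, and the 2 genes most like each member. Members and lists were chosen with earlier results of these data known. The alternatives were other scalings (quantile normalization, median centring, hybridization controls), a pseudocount of 1, leaving out probe sets that were not at a signal of 100 on at least 4 arrays, other thresholds and variance models, averaging the probe sets of a gene, the replicate number as a block, and leaving out each array. Plots were made with Python 3.11.15 and matplotlib 3.10.9.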

Additional observations from a re-analysis of the deposited data

Results flagged for a closer look

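In 4 of the 66 sets of 4 arrays, 1 array lay apart from the other 3 of its group, where chance sets apart about 1 in 20. REC replicate 1 was the highest for Sod1 (6456, the others 4917 to 5115) and for the brighter Prdx2 probe set (4971, the others 1899 to 2330). REC replicate 4 was the highest for Nqo1 (112, the others 57.6 to 61.3). NX replicate 4 was the lowest for the dim Sod2 probe set 1417194_at (3.84, the others 21.3 to 24.3).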

How the results depend on the processing

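Of the single genes under the alternatives, 663 values kept their direction and their side of the threshold, 38 lost and 7 gained a call, and 12 changed sign. The called probe sets in CH went from 17 to 11 after quantile normalization and to 9 on the hybridization controls. Those in REC went from 6 to 3 with median centring or a pseudocount of 1, and to 0 at an adjusted p under 0.001. Leaving out 1 array gave 17 to 19 in CH, 3 to 7 in REC and 14 to 14 between CH and REC. On the hybridization controls the sign changed for Sod1 in CH (-0.01), Sod2 (0.54), Nqo1 (0.07) and Gclc (0.15) in REC, Hmox1 in CH (-0.86), and between CH and REC for Sod1 (-1.10), Gpx4 (-1.69) and Hmox1 (-1.72). The median change of all probe sets on the controls was -0.71 in CH, 0.40 in REC and -1.13 between CH and REC. Quantile normalization turned Sod1 (-0.49) and Gpx4 (-0.71) between CH and REC. The mean of all Sod1 probe sets gave -0.00 in REC, and median centring gave -0.00 for Hmox1 between CH and REC. The cause was not tested. With the mean of its probe sets, Sod1 had a log2 change of 0.36 in CH and lost its call. Among differences between partner genes under other scalings (added after the data were seen), a pseudocount of 1 and the mean of the probe sets, quantile normalization turned Gpx4 minus Gpx1 in CH to 0.19, and the other tested differences kept their side of the threshold. Of the differences to the erythroid markers, quantile normalization turned those of Prdx2 (-0.30) and Gclm (-0.25) in REC and brought those of Nqo1 and Gclm in CH past the threshold, as scaling on the hybridization controls did for Gclm in REC. With 1 array left out, 90 of 96 differences between partner genes kept their side of the threshold and 6 lost it, with -0.73 to -0.55 for Gpx4 minus Gpx1 in CH and -1.73 to -1.26 for Gclm minus Hmox1 in REC. Of 160 differences to the erythroid markers 146 kept it, 9 lost it (Sod2, Cat and Gclc in REC), 2 gained it (Nqo1 in REC, Gclm in CH) and 3 near 0 changed sign or reached it (Prdx2 in REC, -0.05 to 0.00).

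Replicate numbers are not stated to pair the mice. Of 12 same-numbered pairs, 3 correlated above 0.1 (range -0.203 to 0.436), all between NX and CH. Of 12 arrays, 5 correlated best with their own number. So few arrays cannot tell whether the numbers pair the mice. With the replicate block 17 probe sets were called in CH, 5 in REC and 14 between CH and REC. Gclm in REC was then -1.39 with an adjusted p of 0.0525.

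The mean signal was below 100 for 6 of the 22 probe sets, and 18 of the 22 were kept when dim probe sets were left out.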
